A study of Mus musculus with 14 samples.

Results

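The genes described here are 39 fibroblast extracellular matrix genes of the mouse: fibrillar and other collagens, matrix glycoproteins, proteoglycans, elastic fibre proteins, the enzymes that crosslink and remodel the matrix, and surface proteins of mesenchymal cells. They were taken as a list of symbols and matched exactly, in the gene column of the RNA-seq tables and in the symbol column of the RNA immunoprecipitation (RIP) tables. All 39 were found in both, among 24345 genes with FPKM values and 24394 genes with counts. No measured value was used to choose them, although the list was drawn up with earlier results of these data known.

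Connective tissue fibroblasts secrete collagen chains that fold as triple helices in the endoplasmic reticulum, leave the cell as procollagen and assemble outside it into fibrils. Lysyl oxidases crosslink these fibrils, small leucine-rich proteoglycans and glycoproteins coat and organise them, and metalloproteinases with their tissue inhibitors (TIMPs) turn them over. Pluripotent stem cells make little of this interstitial matrix and instead lay down basement membrane proteins such as laminins.

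RNA was sequenced in 14 libraries, 2 in each of 7 groups. Dppa5a_KD were embryonic stem cells with a knockdown of Dppa5a, which encodes an RNA-binding protein with a KH domain found in pluripotent cells, and KD_control were wild-type stem cells. The group mESC was a home-made line of wild-type, untreated embryonic stem cells, and MEF were primary wild-type, untreated embryonic fibroblasts grown in medium with fetal serum. HU_Flag_RIP, Flag_RIP and IgG_RIP held RNA recovered by immunoprecipitation from stem cells that overexpress 3Flag-Dppa5a. A Flag antibody was used in HU_Flag_RIP, on cells given a treatment that the labels name only as HU, and in Flag_RIP, on untreated cells, while IgG_RIP used IgG on untreated cells. All stem cells had been kept on inactivated fibroblast feeders, with leukemia inhibitory factor and serum replacement, and were passaged on gelatin before harvest. The labels do not state how the knockdown was made, or whether the 2 libraries of a group were grown separately. The p-values therefore reflect only the spread between these libraries, which may be technical. Among the RNA-seq groups this spread was smallest in KD_control. The median absolute log2 difference between its libraries, over expressed genes, was 0.0563. It was 0.375 in mESC, 0.201 in MEF and 0.238 in Dppa5a_KD.

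The RNA-seq tables held FPKM, a fragment count scaled to transcript length and sequencing depth, with 18330606 to 25335021 effective fragments per library, as estimated from the deposited confidence bounds. RIP libraries had 3472020 to 13033886 counts, of which 702016 to 1492111 lay outside the 4 most abundant RNAs (Rn45s, Rmrp, Lars2 and Rpph1). Dppa5a, the targeted gene, had 101 and 358 FPKM in Dppa5a_KD, against 5126 and 5417 in KD_control. Both stem cell and fibroblast labels fitted their markers: 10 pluripotency genes summed to 2321 and 3252 FPKM in mESC, against 23.4 and 17.7 in MEF, and 12 mesenchymal genes outside the matrix list summed to 210.4 and 167.1 FPKM in mESC, against 4994 and 4581 in MEF. Eif2s3y, a gene of the Y chromosome, was listed at 0 in KD_control and Dppa5a_KD, against 43.2 and 41.2 FPKM in mESC. KD_control and mESC can therefore not be taken as matched, and a difference in culture, line or batch cannot be told apart between them.

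Promoter windows of 5 genes are shown because their transcripts cover the range of levels described next: among chains of fibrillar collagens, Col3a1 and Col1a2 were near 0 in stem cells and Col5a1 was low but measurable, with 0.911 to 2.70 FPKM, while Sparc and Serpinh1 were kept at a substantial level. Each window runs from 250 bases before to 50 bases after a RefSeq transcription start on GRCm38.p6, is written 5′ to 3′ on the gene's strand, and has CG dinucleotides in capitals. The windows are chr1:45311288-45311587 (plus strand) for Col3a1, chr6:4505368-4505667 (plus) for Col1a2, chr2:27886175-27886474 (plus) for Col5a1, chr11:55420031-55420330 (minus) for Sparc and chr7:99353190-99353489 (minus) for Serpinh1.
Col3a1: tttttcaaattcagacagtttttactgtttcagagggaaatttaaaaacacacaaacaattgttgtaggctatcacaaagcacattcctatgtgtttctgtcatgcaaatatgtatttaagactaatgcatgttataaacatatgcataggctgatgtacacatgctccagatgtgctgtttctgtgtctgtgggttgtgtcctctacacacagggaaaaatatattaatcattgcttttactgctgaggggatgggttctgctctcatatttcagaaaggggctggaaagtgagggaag
Col1a2: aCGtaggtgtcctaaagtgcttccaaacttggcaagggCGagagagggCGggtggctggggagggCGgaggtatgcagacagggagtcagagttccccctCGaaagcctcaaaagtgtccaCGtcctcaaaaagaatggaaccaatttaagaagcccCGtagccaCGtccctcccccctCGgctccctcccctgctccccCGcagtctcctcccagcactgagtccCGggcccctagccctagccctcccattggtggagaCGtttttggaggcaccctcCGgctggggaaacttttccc
Col5a1: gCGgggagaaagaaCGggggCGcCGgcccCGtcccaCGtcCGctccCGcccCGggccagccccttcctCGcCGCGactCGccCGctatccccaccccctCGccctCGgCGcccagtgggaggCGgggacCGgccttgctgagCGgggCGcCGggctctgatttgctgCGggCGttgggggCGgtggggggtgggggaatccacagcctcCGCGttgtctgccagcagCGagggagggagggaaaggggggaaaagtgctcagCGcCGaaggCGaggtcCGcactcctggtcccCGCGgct
Sparc: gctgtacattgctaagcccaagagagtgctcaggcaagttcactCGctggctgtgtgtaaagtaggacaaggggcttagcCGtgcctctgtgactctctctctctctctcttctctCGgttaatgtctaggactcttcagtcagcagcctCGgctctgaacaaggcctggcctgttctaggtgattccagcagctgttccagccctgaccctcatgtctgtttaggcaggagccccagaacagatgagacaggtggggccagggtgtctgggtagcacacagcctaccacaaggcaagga
Serpinh1: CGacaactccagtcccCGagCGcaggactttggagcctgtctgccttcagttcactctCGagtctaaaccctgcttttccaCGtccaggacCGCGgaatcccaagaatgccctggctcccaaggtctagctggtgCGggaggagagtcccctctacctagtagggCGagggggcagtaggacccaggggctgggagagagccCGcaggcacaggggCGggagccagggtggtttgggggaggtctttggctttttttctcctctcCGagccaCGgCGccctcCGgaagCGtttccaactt

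The 5 windows differed widely in CG content. The Col3a1 window held 0 CG dinucleotides, the Col1a2 window 13 and the Col5a1 window 34, against 4 for Sparc and 16 for Serpinh1. Of the 39 genes, 22 had a window in the RefSeq table, in 27 windows (Cyr61 was found under its newer symbol, Ccn1), and their median was 10 CG dinucleotides, against 7 over all 32851 windows of the table. The TATA-box letters TATAAA were present, on either strand, in 6 of the 27 windows and in 13.6% of all windows, CCAAT in 7 of the 27 windows and in 37.4% of all windows, the GC-box letters GGGCGG in 17 of the 27 and in 35.7%, and the AP-1 letters TGANTCA in 1 of the 27 and in 7.81%. Such a match describes the letters of a window and is not a binding site, and several windows belong to the same gene.

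All 39 matrix genes were lower in mESC than in MEF. Their median log2 fold change was -6.65, on the log2(FPKM + 1) scale, against 0.15 over the 12875 genes tested, and it ranged from -10.78 for Col1a1 to -2.01 for Fbln1. Among all genes tested, 56.7% were called, 26.1% lower and 30.6% higher (limma on log2(FPKM + 1), Benjamini-Hochberg adjusted p under 0.05). Genes were tested where 1 of the 2 groups averaged 1 FPKM or more, and every matrix gene passed this filter through its level in MEF. Under 1 FPKM were 25 and 20 of the 39 genes in the 2 mESC libraries. Those with a mESC mean under 1 FPKM, such as Col1a1, Bgn and Lox, passed only through MEF. They could only be found lower, so the count of 39 is a description. No library of mESC reached the level of a library of MEF for any of them. The share of all genes without overlap was not counted, here or in the comparisons below, so nothing is read from separation alone. The 39 genes held 0.0712% and 0.0833% of the summed FPKM in mESC, against 3.63% and 3.58% in MEF. In the 2 MEF libraries, 7 and 5 of them were among the 100 genes with the highest FPKM, against 0 in each stem cell library.

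**Figure D1:**
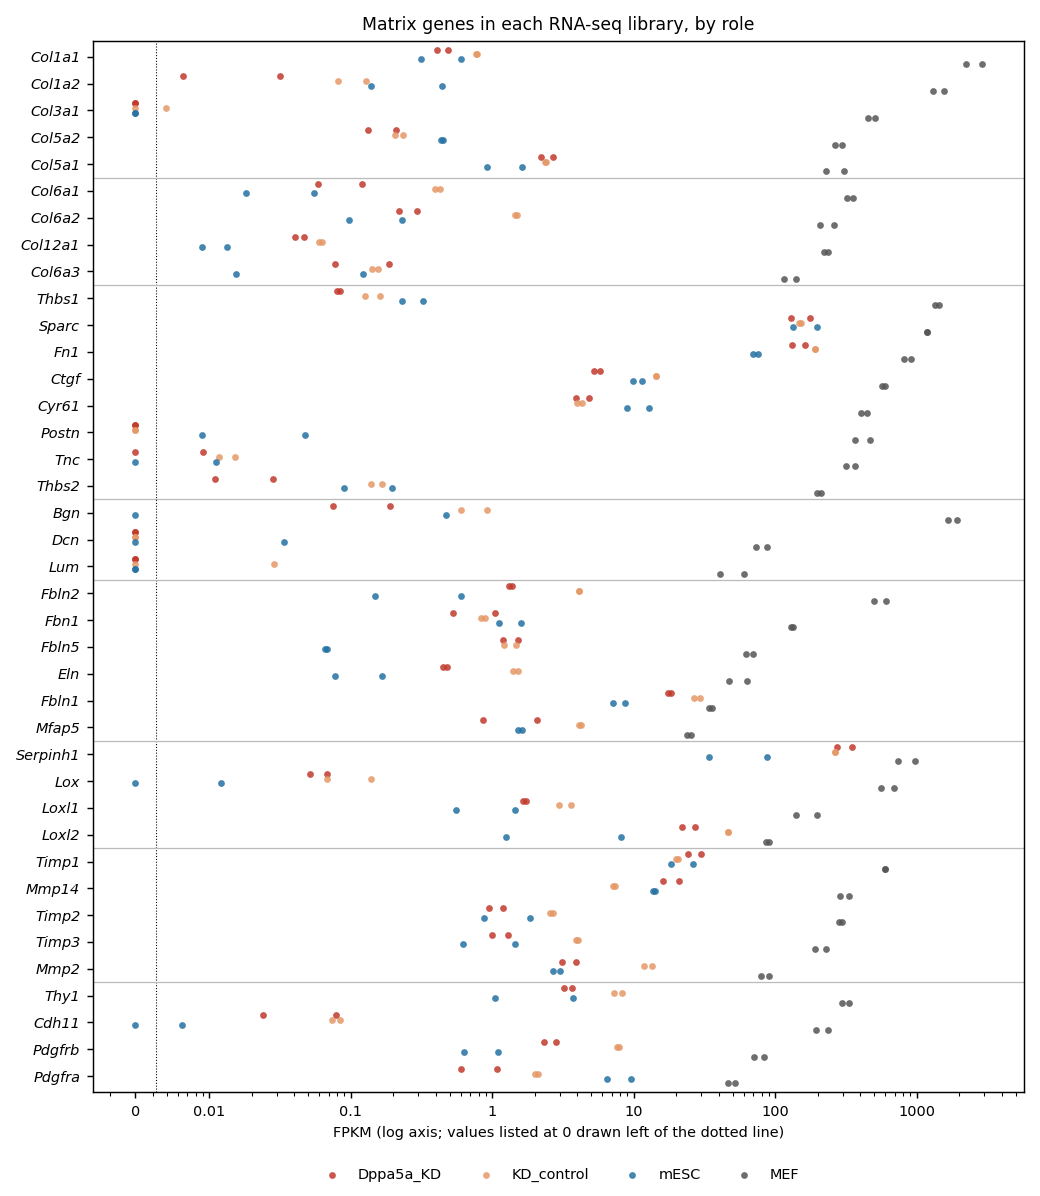
FPKM (log axis) of the 39 matrix genes, grouped by role, in each of the 8 RNA-seq libraries: Dppa5a_KD, KD_control, mESC and MEF, with 1 point per library and values listed at 0 left of the dotted line. All MEF points lie at or above 23.6 FPKM, while stem cell points spread from 0 to 350 FPKM.

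The fibrillar collagens had the largest median difference of the 8 roles, -8.91. On the log2(FPKM + 1) scale the fold change of a gene near 0 in mESC is set mainly by its MEF level. The order of roles therefore partly ranks fibroblast abundance. The proteoglycans, with a median of -6.31, kept 0.0211% of the MEF mean or less, against up to 0.473% for the fibrillar collagens. Col1a1 and Col1a2 (chr11:94936270-94951856 and chr6:4505697-4541543, mm10) encode the chains of type I collagen, the main collagen of skin, tendon and bone. Col1a1 had 0.313 and 0.599 FPKM in mESC, against 2894 and 2226 in MEF (log2 fold change -10.78, SE 0.25, adjusted p = 5.2e-05), where it ranked 11 and 16 of 24345 genes. Col1a2 had 0.139 and 0.440 FPKM in mESC, against 1562 and 1308 in MEF (-10.13, SE 0.23). Type I collagen is a trimer with more of the first chain than of the second, and in MEF the FPKM of Col1a1 was 1.85 and 1.70 times that of Col1a2. Col3a1, the single chain of type III collagen, was listed at 0 in both mESC libraries, against 507 and 452 FPKM in MEF. Col5a1, a chain of the type V collagen that starts fibrils, had the smallest difference of this role, with 0.911 and 1.61 FPKM in mESC, against 306 and 228 in MEF (-6.89, SE 0.27). Col5a2, its partner chain, had 0.446 and 0.438 FPKM in mESC, against 295 and 266 in MEF.

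Type VI collagen forms beaded microfibrils from 3 different chains, and Col12a1 encodes a collagen that sits on the surface of fibrils. All 4 genes were at 0.229 FPKM or less in mESC. Col6a1 had 0.0182 and 0.0551 FPKM in mESC, against 354 and 324 in MEF (-8.36, SE 0.20). Col6a2 had 0.0978 and 0.229 FPKM in mESC, against 262 and 206 in MEF, and Col6a3 had 0.0154 and 0.122 FPKM in mESC, against 139 and 115 in MEF. The chains therefore differed in level within the fibroblasts: Col6a1 was 1.35 and 1.57 times Col6a2, and 2.54 and 2.81 times Col6a3.

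The glycoproteins divided into genes that were nearly undetected and genes that were kept in stem cells. Thbs1, which encodes the secreted glycoprotein thrombospondin-1 (chr2:118111922-118127133), had 0.232 and 0.323 FPKM in mESC, against 1347 and 1427 in MEF (-10.09, SE 0.20, adjusted p = 5.2e-05). Sparc, a collagen-binding matricellular protein (chr11:55394159-55420080), had 133 and 196 FPKM in mESC, against 1190 and 1186 in MEF (-2.88, SE 0.28, adjusted p = 8.4e-04), so that its mean in mESC was 13.8% of its mean in MEF. Fn1, fibronectin, had 69.3 and 75.2 FPKM in mESC, against 903 and 818 in MEF. Ctgf and Cyr61, secreted CCN-family proteins and known targets of YAP, lay between these extremes. Ctgf had 11.4 and 9.86 FPKM in mESC, against 595 and 569 in MEF, and Cyr61 had 9.001 and 12.8 FPKM in mESC, against 445 and 403 in MEF. Postn, Tnc and Thbs2, further matricellular proteins, were at 0.197 FPKM or less in each mESC library and at 199 FPKM or more in each MEF library.

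Proteoglycans with leucine-rich repeats, which bind collagen fibrils, were at 0.472 FPKM or less in mESC. Bgn, biglycan (chrX:73483635-73495936), was listed at 0 and had 0.472 FPKM in mESC, against 1662 and 1921 in MEF (-10.53, SE 0.27). Dcn, decorin, was listed at 0 and had 0.0338 FPKM in mESC, against 72.9 and 87.1 in MEF (-6.31, SE 0.20). Lum, lumican, was listed at 0 in both mESC libraries, against 40.9 and 59.7 FPKM in MEF (-5.66, SE 0.24).

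Of the elastic fibre genes, Fbln1 stood out for the smallest difference of all 39. Fbln1 encodes fibulin-1, a calcium-binding glycoprotein of elastic fibres and basement membranes (chr15:85206008-85286294), and had 7.16 and 8.68 FPKM in mESC, against 35.8 and 33.8 in MEF (-2.01, SE 0.21, adjusted p = 9.5e-04). Fbln2, a related fibulin, had 0.150 and 0.603 FPKM in mESC, against 601 and 496 in MEF (-8.66, SE 0.26), the largest difference of this role. Fbn1, fibrillin-1 of microfibrils, had 1.59 and 1.11 FPKM in mESC, against 133 and 130 in MEF (-5.82, SE 0.21). The 2 fibulins thus differed widely from each other.

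Crosslinking and folding genes were just as unequal. Lox, lysyl oxidase, was listed at 0 and had 0.0121 FPKM in mESC, against 562 and 690 in MEF (-9.28, SE 0.21). Serpinh1 encodes Hsp47, the collagen chaperone of the endoplasmic reticulum (chr7:99345375-99353239), and had 34.1 and 87.8 FPKM in mESC, against 978 and 738 in MEF (-3.93, SE 0.48, adjusted p = 0.0017). Without MEF replicate 1 its adjusted p was 0.052. Loxl2, another lysyl oxidase, had 1.24 and 8.09 FPKM in mESC, against 90.9 and 86.4 in MEF (-4.31, SE 0.64), with adjusted p-values of 0.074 without MEF replicate 1 and 0.070 without MEF replicate 2.

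Proteases and their inhibitors kept a low but measurable level. Timp1, a secreted metalloproteinase inhibitor, had 18.4 and 26.3 FPKM in mESC, against 596 and 601 in MEF (-4.70, SE 0.26). Mmp14, a membrane-bound metalloproteinase that activates pro-MMP2 (chr14:54431604-54441258), had 13.6 and 14.03 FPKM in mESC, against 330 and 289 in MEF (-4.38, SE 0.21). Of the surface proteins, Thy1, a GPI-anchored glycoprotein used as a fibroblast marker, had 1.05 and 3.75 FPKM in mESC, against 330 and 295 in MEF (-6.65, SE 0.42). Cdh11, a mesenchymal cadherin, was listed at 0 and had 0.00647 FPKM in mESC, against 194 and 235 in MEF. Pdgfra, the PDGF receptor alpha, which also marks primitive endoderm, had 9.50 and 6.47 FPKM in mESC, against 46.4 and 51.5 in MEF (-2.50, SE 0.25).

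As shares of the mean FPKM in MEF, 25 of the 39 genes were under 1% in mESC, 11 were from 1% to 10%, and Sparc, Fbln1 and Pdgfra were above 10%, up to 22.8% for Fbln1. In bulk RNA, fewer producing cells and less RNA per cell cannot be told apart.

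KD_control stem cells were likewise lower than MEF in all 39 genes, with a median log2 fold change of -6.30, against 0.29 over 13365 genes tested, of which 80.9% were called, 32.5% lower and 48.4% higher. In each KD_control library 17 of the 39 genes, among them Col1a1, Col3a1 and Lox, were under 1 FPKM. These passed the filter only through MEF and could only be found lower, so the count is a description. The MEF libraries are shared with the comparison of mESC, so the comparisons are not independent. The smallest p-values belonged to genes close to 0 in KD_control. Thbs1 had 0.125 and 0.160 FPKM in KD_control, against 1347 and 1427 in MEF (-10.25, SE 0.08, adjusted p = 5.2e-06). Col12a1 had 0.0630 and 0.0594 FPKM in KD_control, against 235 and 223 in MEF (-7.76, SE 0.09), and Col3a1 was listed at 0 and had 0.00493 FPKM in KD_control (-8.90, SE 0.10). Bgn had 0.598 and 0.917 FPKM in KD_control, against 1662 and 1921 in MEF (-10.00, SE 0.13).

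At the other end, Fbln1 came near its fibroblast level in KD_control, and other genes kept a smaller share of theirs. Fbln1 had 29.6 and 26.7 FPKM in KD_control, against 35.8 and 33.8 in MEF (-0.30, SE 0.10, adjusted p = 0.036), or 81.0% of the MEF mean; this call ended without KD_control replicate 1 (adjusted p = 0.13), without KD_control replicate 2 (0.26), without MEF replicate 1 (0.056) and in a fit of all 8 libraries (0.12). Loxl2 had 46.0 and 46.2 FPKM in KD_control, against 90.9 and 86.4 in MEF (-0.93, SE 0.08), or 52.0% of the MEF mean, and its adjusted p was 0.16 in the fit of all 8 libraries. Serpinh1 had 263 FPKM in both KD_control libraries, against 978 and 738 in MEF (-1.69, SE 0.15). In all, 22 genes were under 1% of the MEF mean in KD_control, 9 were from 1% to 10%, and 8 were above 10% (Fn1, Sparc, Fbln1, Mfap5, Loxl2, Serpinh1, Mmp2 and Pdgfrb).

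**Figure D2:**
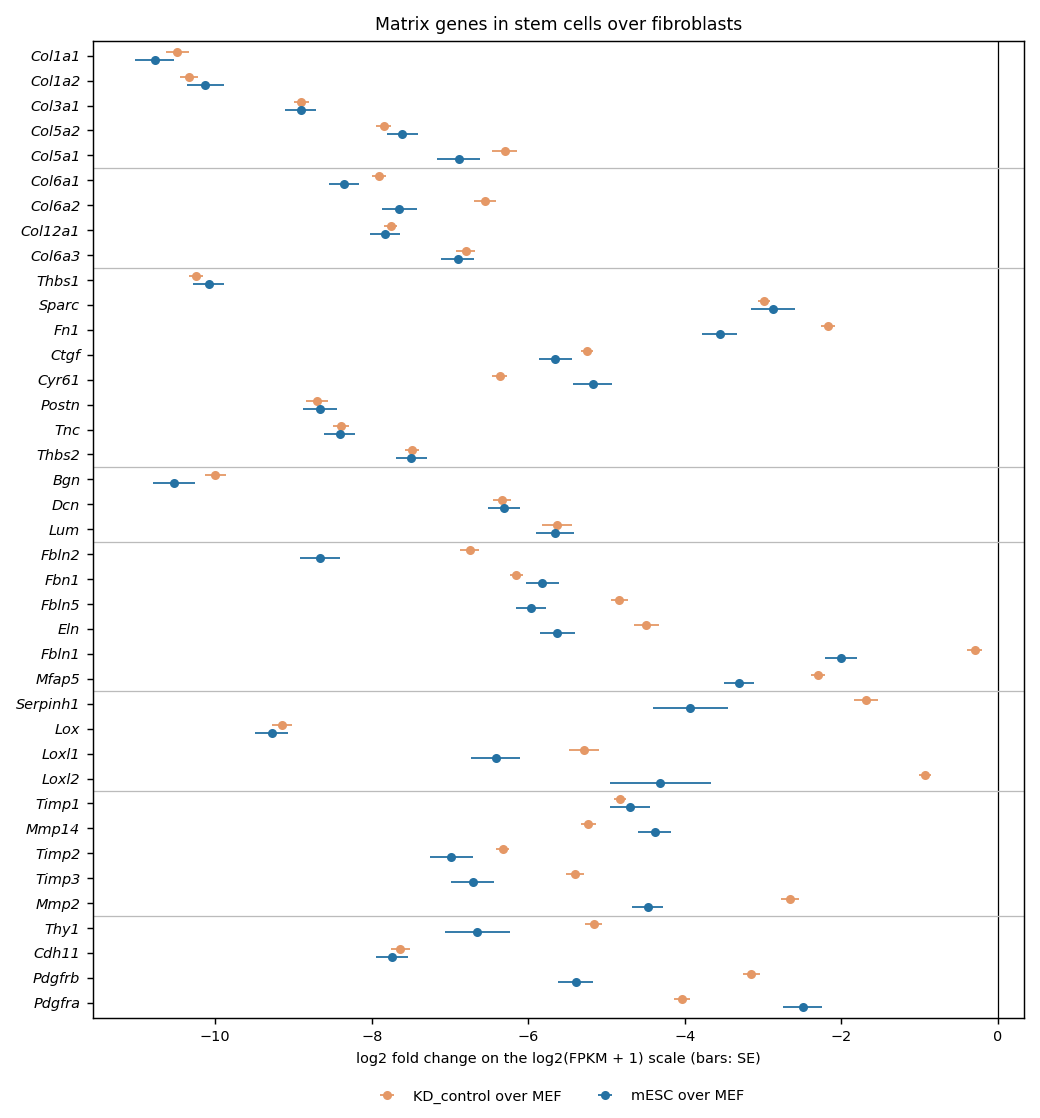
Log2 fold change over MEF (log2(FPKM + 1) scale, bars: SE) of the 39 matrix genes by role, for KD_control and for mESC, with 2 libraries a group. Every point lies below 0, from -10.78 for Col1a1 in mESC to -0.30 for Fbln1 in KD_control, and both comparisons use the same 2 MEF libraries.

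The 2 sets of wild-type stem cells differed in matrix genes. Of the 39, 23 passed the filter between KD_control and mESC, 13 were called higher in KD_control, 3 lower and 7 neither, against 41.4% called among 12595 genes, 26.5% higher and 15% lower. The median log2 fold change was 1.13, against 0.20 over all genes tested. Col6a2, Eln, Fbln2, Fbln5 and Pdgfrb passed the filter only through their level in KD_control, so the count is a description. Pdgfrb, the PDGF receptor beta, had 7.89 and 7.61 FPKM in KD_control, against 0.636 and 1.09 in mESC (2.24, SE 0.18, adjusted p = 0.0071). Mmp2, a gelatinase, had 13.6 and 11.7 FPKM in KD_control, against 3.01 and 2.70 in mESC (1.82, SE 0.16). Fbln1 had 29.6 and 26.7 FPKM in KD_control, against 7.16 and 8.68 in mESC (1.71, SE 0.16). The libraries of the 2 groups did not overlap for any of these 3 genes, and how many of all genes separate likewise was not counted.

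Of 6 elastic fibre genes, 5 were called higher, against 26.5% of all genes; 3 of the 5 (Fbln2, Eln and Fbln5) passed the filter only through KD_control and could therefore only be found higher, so nothing is read from this count. Fbln2 had 4.10 and 4.08 FPKM in KD_control, against 0.150 and 0.603 in mESC (1.91, SE 0.20). Eln, tropoelastin, had 1.41 and 1.53 FPKM in KD_control, against 0.0770 and 0.167 in mESC (1.14, SE 0.12), Fbln5, a fibulin that binds tropoelastin, had 1.48 and 1.21 FPKM in KD_control, against 0.0660 and 0.0680 in mESC (1.13, SE 0.12), and Mfap5, a microfibril protein, had 4.23 and 4.12 FPKM in KD_control, against 1.62 and 1.52 in mESC (1.01, SE 0.13). All 3 were low in both groups. Fn1 had 192 and 190 FPKM in KD_control, against 69.3 and 75.2 in mESC (1.39, SE 0.14, adjusted p = 0.0084). Col6a2 had 1.46 and 1.51 FPKM in KD_control, against 0.0978 and 0.229 in mESC (1.10, SE 0.12). Calls for Fn1, Mfap5, Cyr61 and Mmp14 ended when either KD_control library was left out, with adjusted p-values of 0.063 and 0.064 for Fn1, 0.098 and 0.094 for Mfap5, 0.10 and 0.14 for Cyr61 and 0.27 and 0.26 for Mmp14, and the call for Loxl1 ended without KD_control replicate 1 (0.069).

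Of the crosslinking and folding genes, Loxl2 and Serpinh1 were higher in KD_control, with uneven mESC libraries. Loxl2 had 46.0 and 46.2 FPKM in KD_control, against 1.24 and 8.09 in mESC (3.38, SE 0.70, adjusted p = 0.026), with a log2 fold change of 2.37 without mESC replicate 1 and 4.39 without mESC replicate 2. Serpinh1 had 263 FPKM in both KD_control libraries, against 34.1 and 87.8 in mESC (2.24, SE 0.48, adjusted p = 0.028), with 1.57 without mESC replicate 1 and 2.91 without mESC replicate 2. Pdgfra went the other way, with 1.99 and 2.09 FPKM in KD_control, against 9.50 and 6.47 in mESC (-1.54, SE 0.22, adjusted p = 0.012). Markers of primitive or parietal endoderm moved with Pdgfra, which is 1 of them: 9 of 14 tested were lower in KD_control and 0 higher, against 15% of all genes called lower, with summed FPKM of 268.4 and 270.6 in KD_control, against 329.8 and 608.1 in mESC. Markers of other cell types went both ways, against 26.5% of all genes called higher. Of 4 smooth muscle genes tested 2 were higher (Cnn1, 1.69, and Des, 1.31) and 0 lower, with Myl9 (-1.34) not called. This list summed to 13.95 and 13.57 FPKM in KD_control, against 5.6 and 13.88 in mESC. Of 4 endothelial genes 2 were higher (Pecam1, 1.68, and Flt1, 1.21) and 1 lower (Tek, -0.63). The endothelial sums were 69.1 and 67.5 FPKM in KD_control, against 17.9 and 30.3 in mESC. Of 4 mesenchymal genes outside the list 2 were higher (Twist1, 1.20, and Fstl1, 0.66) and 1 lower (Vim, -1.25). The mesenchymal sums were 95.8 and 94.5 FPKM in KD_control, against 210.4 and 167.1 in mESC. The single tested macrophage marker, Cd68 (0.88), was higher, as was Acan (0.66), 1 of 2 tested cartilage and bone markers. The part of these cell types in the differences was not tested. Mmp14 (-0.85, SE 0.14) and Cyr61 (-1.19, SE 0.21) were the other lower genes. Sparc had 146 and 151 FPKM in KD_control, within the 133 and 196 of mESC, and Timp1 had 19.9 and 20.4 FPKM in KD_control, within the 18.4 and 26.3 of mESC; neither was called (-0.11, SE 0.24, and -0.12, SE 0.21).

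With Dppa5a knocked down, 14 of the 22 matrix genes that passed the filter fell, Mmp14 rose and 7 were not called. Among all 12345 genes tested, 37.4% were called; 23.8% were called lower and 13.6% higher. The median log2 fold change of the 22 was -0.74, against -0.11 over all genes. The other 17 genes, among them Col1a1, Col1a2, Col3a1, Thbs1, Bgn, Dcn, Lum, Postn and Lox, had a mean under 1 FPKM in both groups and were not tested. Col6a2, Eln and Pdgfra passed the filter only through their level in KD_control. The KD_control libraries are shared with the comparison with mESC, so these comparisons are not independent. Col6a2, Eln, Fbln1, Fbln2, Mfap5, Loxl1, Loxl2, Mmp2, Timp3 and Pdgfrb fell here and were called higher in KD_control than in mESC. Mmp14 was called lower there. Ctgf, Thy1 and Timp2 fell here without a call there, and Pdgfra was called lower there. The part of the KD_control levels in the falls was not tested. On the scale of summed FPKM, the 39 genes took 0.151% and 0.133% of a library in Dppa5a_KD, against 0.138% and 0.137% in KD_control. The 3 genes that make up most of the sum (Serpinh1, Sparc and Fn1) were not called. Of these, Serpinh1 had 272 and 350 FPKM in Dppa5a_KD, against 263 in both KD_control libraries. Fn1 went the other way, with 162 and 132 FPKM in Dppa5a_KD, against 192 and 190 in KD_control.

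Among the secreted proteins, Ctgf had the smallest p. It encodes connective tissue growth factor (chr10:24595442-24598682) and had 5.27 and 5.77 FPKM in Dppa5a_KD, against 14.4 and 14.3 in KD_control (-1.23, SE 0.10, adjusted p = 0.0060). Cyr61, of the same CCN family, had 3.88 and 4.85 FPKM in Dppa5a_KD, against 4.33 and 3.998 in KD_control, and was not called (0.05, SE 0.13). The Cyr61 libraries overlapped and those of Ctgf did not. Fbln2 had 1.32 and 1.37 FPKM in Dppa5a_KD, against 4.10 and 4.08 in KD_control (-1.12, SE 0.10, adjusted p = 0.0061). Fn1 had 162 and 132 FPKM in Dppa5a_KD, against 192 and 190 in KD_control, without overlap, but missed the threshold (-0.38, SE 0.15, adjusted p = 0.12). Col6a2, the one tested chain of collagen VI, had 0.220 and 0.295 FPKM in Dppa5a_KD, against 1.46 and 1.51 in KD_control (-0.98, SE 0.10).

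The remodelling enzymes moved in both directions. Mmp2 had 3.13 and 3.91 FPKM in Dppa5a_KD, against 13.6 and 11.7 in KD_control (-1.60, SE 0.14, adjusted p = 0.0061). This was the largest fall of the 22 on the log2(FPKM + 1) scale, which shrinks changes of low genes. In proportion to mean FPKM, Col6a2 fell further, from 1.48 in KD_control to 0.258 in Dppa5a_KD, against 12.6 to 3.52 for Mmp2. Mmp14, whose product activates pro-MMP2, had 20.9 and 16.1 FPKM in Dppa5a_KD, against 7.16 and 7.33 in KD_control (1.23, SE 0.15, adjusted p = 0.0078), the only rise. Timp3, an inhibitor bound to the matrix, had 1.29 and 1.00 FPKM in Dppa5a_KD, against 4.004 and 3.89 in KD_control (-1.21, SE 0.12). Timp2, which also takes part in the activation of pro-MMP2, had 0.947 and 1.19 FPKM in Dppa5a_KD, against 2.57 and 2.69 in KD_control (-0.82, SE 0.12). None of these 4 genes had overlapping libraries, a trait whose share over all genes was not counted. Timp1 had 24.0 and 29.8 FPKM in Dppa5a_KD, against 19.9 and 20.4 in KD_control (0.39, SE 0.14, adjusted p = 0.081), and its adjusted p was 0.047 with FPKM rescaled to a common sum and 0.033 with median-ratio scaling.

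All 3 tested surface proteins fell, against 23.8% of all genes called lower. Of the 3, Pdgfra passed the filter only through KD_control and its adjusted p was 0.080 with FPKM rescaled to a common sum, and that of Thy1 was 0.074 in the fit of all 8 libraries. Pdgfrb had 2.81 and 2.32 FPKM in Dppa5a_KD, against 7.89 and 7.61 in KD_control (-1.30, SE 0.12, adjusted p = 0.0062). Thy1 had 3.21 and 3.65 FPKM in Dppa5a_KD, against 7.27 and 8.23 in KD_control (-0.98, SE 0.12, adjusted p = 0.0080). Pdgfra had 1.09 and 0.603 FPKM in Dppa5a_KD, against 1.99 and 2.09 in KD_control (-0.73, SE 0.16). Each pair of groups was separate, at levels of 8.23 FPKM or less, with no share over all genes to set beside it.

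Of the elastic fibre genes, 4 of 5 tested fell, against 23.8% of all genes called lower, and Eln, 1 of the 4, passed the filter only through KD_control. Eln had 0.452 and 0.475 FPKM in Dppa5a_KD, against 1.41 and 1.53 in KD_control (-0.75, SE 0.10, adjusted p = 0.0091). Fbln1 (-0.62, SE 0.11) and Mfap5 (-1.12, SE 0.25) also fell, as did the lysyl oxidases Loxl1 (-0.67, SE 0.12) and Loxl2 (-0.89, SE 0.13). Fbln5, with 1.19 and 1.53 FPKM in Dppa5a_KD, against 1.48 and 1.21 in KD_control, was not called. Serpinh1 had 272 and 350 FPKM in Dppa5a_KD, against 263 in both KD_control libraries (0.23, SE 0.18, adjusted p = 0.37), and Sparc had 129 and 176 FPKM in Dppa5a_KD, around the 146 and 151 of KD_control (0.02, SE 0.19). Fbln1 lost its call without KD_control replicate 1 (adjusted p = 0.22) and without KD_control replicate 2 (0.10), Loxl1 without KD_control replicate 1 (0.12), and with rescaling to a common sum Fbln1 (0.13), Loxl1 (0.067) and Loxl2 (0.066) lost theirs. In the fit of all 8 libraries Loxl1 (0.098) and Loxl2 (0.26) did.

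**Figure D3:**
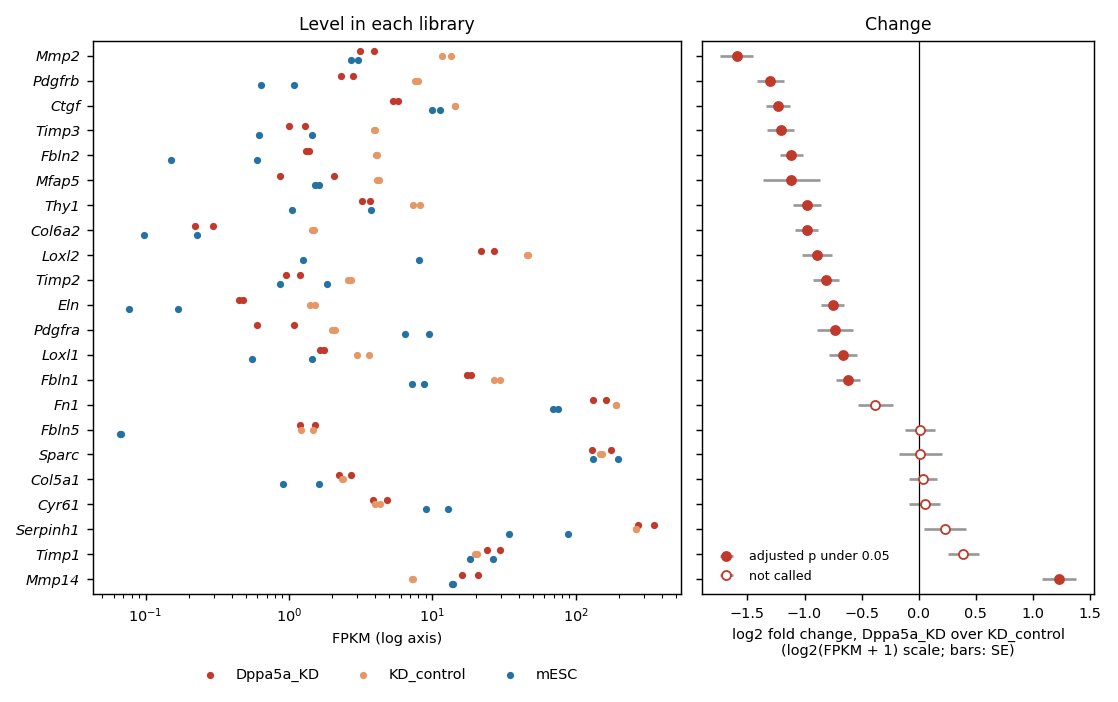
The 22 matrix genes tested between Dppa5a_KD and KD_control: FPKM in each library on a log axis, with mESC for comparison (left), and the log2 fold change with its SE (right; filled where the adjusted p was under 0.05). On the log2(FPKM + 1) scale of the right panel Mmp2 at -1.60 and Mmp14 at 1.23 mark the ends, and 7 open points were not called.

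Markers of other cell types were read beside these changes. Smooth muscle and myofibroblast genes summed to 5.80 and 5.98 FPKM in Dppa5a_KD, against 13.9 and 13.6 in KD_control, and 2 of 3 tested fell (Des and Cnn1). Mesenchymal genes outside the list summed to 126.8 and 126.5 FPKM in Dppa5a_KD, against 95.8 and 94.5 in KD_control, mostly from Vim, and 1 of 3 tested rose (Vim) and 1 fell (Twist1). The 14 endoderm markers, which include Sparc and Pdgfra, summed to 224.4 and 251.9 FPKM in Dppa5a_KD, against 268.4 and 270.6 in KD_control, with 7 of 11 tested lower and 1 higher. The 7 endothelial markers summed to 40.2 and 43.8 FPKM in Dppa5a_KD, against 69.1 and 67.5 in KD_control, and of 3 tested Pecam1 (-1.04, SE 0.10, adjusted p = 0.0062) and Flt1 (-0.41) fell and Esam (0.84) rose. The single tested macrophage marker, Cd68, rose (0.70) and the single tested cartilage and bone marker, Acan, fell (-0.60). The part of these cell types in the change of the matrix genes was not tested. Of the matrix genes too low for the test, Col3a1, Dcn, Lum and Postn were at 0.0286 FPKM or less in all 4 libraries. Others, named here once their values had been seen, were lower in Dppa5a_KD without overlap: Col1a1 had 0.487 and 0.405 FPKM in Dppa5a_KD, against 0.775 and 0.771 in KD_control, and Col1a2 had 0.00651 and 0.0317 FPKM in Dppa5a_KD, against 0.0819 and 0.128 in KD_control. Bgn had 0.0749 and 0.190 FPKM in Dppa5a_KD, against 0.598 and 0.917 in KD_control, and Thbs2 had 0.0281 and 0.0109 FPKM in Dppa5a_KD, against 0.165 and 0.139 in KD_control. Col6a1, Col12a1, Thbs1, Tnc and Lox were also lower without overlap. Col5a2, Col6a3, Fbn1 and Cdh11 overlapped between the groups. Fbn1 had 1.04 and 0.529 FPKM in Dppa5a_KD, against 0.826 and 0.888 in KD_control. In Dppa5a_KD, Col1a2 rested on an estimated 1 and 5 fragments, Thbs2 on 5 and 2, and Bgn on 5 and 13. Col1a1 rested on more. How many of all genes at such levels were separate was not counted. Over the whole table the fold change also varied with an effective length, estimated as fragments from the confidence bounds over FPKM. Wide bounds shrink this estimate, so it is not transcript length: Serpinh1 came out at 0.342 kb and Fn1 at 1.14 kb. The median fold change was -0.34 for the 10% of genes with the shortest estimate and 0.06 for the 10% with the longest. By this estimate the 22 genes were spread over the whole range.

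Other lists of matrix assembly held calls in both directions, to be read against the 13.6% of all genes called higher and 23.8% called lower. Of 18 tested collagen processing enzymes, 7 rose and 4 fell in Dppa5a_KD, with a median log2 fold change of 0.08. P4ha1, a prolyl hydroxylase subunit, had 34.6 and 33.0 FPKM in Dppa5a_KD, against 79.7 and 81.0 in KD_control (-1.23, SE 0.10, adjusted p = 0.0060), and Plod2, a lysyl hydroxylase, fell by 0.89. Fkbp10, a collagen chaperone, had 43.2 and 46.9 FPKM in Dppa5a_KD, against 22.3 and 22.2 in KD_control (0.99, SE 0.10, adjusted p = 0.0063). Of 13 tested matrix receptors 1 rose (Itga3, 0.76) and 3 fell, of 12 basement membrane genes 1 rose (Col18a1, 0.83) and 3 fell, among them Lamb1 (-1.01), and of 11 genes of TGF-beta signalling 2 rose and 2 fell; in these last 3 lists the share called was below the 37.4% of all genes. Ltbp3, a latent TGF-beta binding protein, had 2.04 and 2.08 FPKM in Dppa5a_KD, against 7.26 and 6.96 in KD_control (-1.41, SE 0.10), and Smad7, an inhibitor of the pathway, had 38.0 and 40.0 FPKM in Dppa5a_KD, against 16.3 and 15.2 in KD_control (1.26, SE 0.10).

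The same lists were tested between mESC and MEF, where 26.1% of all genes were called lower and 30.6% higher. Of 23 tested collagen processing enzymes, 17 were lower and 0 higher in mESC. Of 18 matrix receptors, 15 were lower and 2 higher, with Cd44, the hyaluronan receptor, at 0.163 and 0.111 FPKM in mESC, against 85.4 and 102.8 in MEF. Basement membrane genes went both ways, with 4 higher and 6 lower of 15: Lama1, a laminin chain of early embryos, had 41.2 and 56.8 FPKM in mESC, against 0.693 and 0.680 in MEF (4.87, SE 0.23, adjusted p = 1.1e-04), and Lama4, a laminin chain of mesenchyme and vessels, had 0.187 and 0.132 FPKM in mESC, against 48.9 and 51.2 in MEF (-5.46, SE 0.19). Of 14 TGF-beta genes, 10 were lower and 1 higher.

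In the RIP libraries the matrix genes were scarce, with 760 to 1249 counts per library in all, or 0.0732% to 0.118% of the counts outside the 4 most abundant RNAs. Col3a1, Postn, Dcn and Lum had 0 counts in all 6 libraries, and a count of 0 allows up to 3 counts, which is 0.292 to 0.597 CPM (counts scaled to library size), depending on the library; this limit covers counting error only. Of the 39 genes, 16 passed the filter on low counts. RIP values give the share of a transcript in the recovered RNA, and no input libraries were used here, so they are compared only between antibodies and treatments.

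Between Flag_RIP and IgG_RIP, Cyr61 was higher, Thbs1 was lower and 14 genes were not called, against 2.32% of 10473 genes called, 1.16% higher and 1.16% lower (edgeR quasi-likelihood test, Benjamini-Hochberg adjusted p under 0.05). Cyr61 (chr3:145646971-145649985) had 47 and 24 counts in Flag_RIP, against 2 and 1 in IgG_RIP, which is 4.57 and 3.00 CPM in Flag_RIP, against 0.398 and 0.169 in IgG_RIP (log2 fold change 3.70, SE 0.88, adjusted p = 0.030). It passed the filter on low counts only through libraries of the Flag antibody, so it could only be found higher. The libraries do not overlap, but the IgG_RIP level rests on 3 counts in all, and the call ended without Flag_RIP replicate 1 (adjusted p = 0.12), without IgG_RIP replicate 1 (0.17) and without IgG_RIP replicate 2 (0.22). Thbs1 had 29 and 6 counts in Flag_RIP, against 95 and 38 in IgG_RIP, which is 2.82 and 0.750 CPM in Flag_RIP, against 18.9 and 6.43 in IgG_RIP (-2.78, SE 0.67, adjusted p = 0.031). Its call ended without Flag_RIP replicate 2 (0.12) and without IgG_RIP replicate 1 (0.45), and without Flag_RIP replicate 1 the log2 fold change was -4.03. Macrophage markers moved with Thbs1: the 8 genes summed to 4.67 and 5.50 CPM in Flag_RIP, against 115.3 and 46.6 in IgG_RIP, mostly from Lyz2, which was lower in Flag_RIP. Their part in the Thbs1 difference was not tested.

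Scaled by library size alone in place of TMM, 1 gene was called higher and 5 lower in Flag_RIP, and likewise 1 higher and 5 lower in HU_Flag_RIP against IgG_RIP; the median of all genes in Flag_RIP then stood at -0.87. Fn1 and Loxl2, of higher CPM, were not called with TMM. Fn1 had 29.6 and 51.0 CPM in Flag_RIP, against 59.3 and 40.0 in IgG_RIP (-0.30, SE 0.39, adjusted p = 0.80), and Loxl2 had 14.3 and 41.9 CPM in Flag_RIP, against 33.9 and 46.2 in IgG_RIP (-0.52, SE 0.46, adjusted p = 0.66). For both genes the groups overlapped. Pdgfra also passed the filter only through libraries of the Flag antibody. It had 17 and 12 counts in Flag_RIP, against 0 and 0 in IgG_RIP, and was not called (adjusted p = 0.12).

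After HU, Cyr61 was again the called gene: it had 55 and 28 counts in HU_Flag_RIP, against 2 and 1 in IgG_RIP, which is 7.31 and 4.60 CPM in HU_Flag_RIP, against 0.398 and 0.169 in IgG_RIP (4.35, SE 0.88, adjusted p = 0.0092). Given how it passed the filter, Cyr61 could here too only be found higher. Of 16 genes tested it was the 1 called higher and 0 were called lower, against 2.86% of genes called, 1.44% higher and 1.42% lower. The IgG_RIP libraries are the same as before, so this is no independent repeat, and the call ended without HU_Flag_RIP replicate 1 (adjusted p = 0.057), without IgG_RIP replicate 1 (0.088) and without IgG_RIP replicate 2 (0.14). Thbs1 had 2.92 and 5.91 CPM in HU_Flag_RIP, against 18.9 and 6.43 in IgG_RIP, and was not called (-1.52, SE 0.63, adjusted p = 0.21); the 8 macrophage markers summed to 10.8 and 38.1 CPM in HU_Flag_RIP, against 115.3 and 46.6 in IgG_RIP. Pdgfra had 5 and 15 counts in HU_Flag_RIP, against 0 and 0 in IgG_RIP (adjusted p = 0.11). Fn1 had 21.4 and 54.4 CPM in HU_Flag_RIP, and Loxl2 had 10.6 and 29.4, against the IgG_RIP values above, and neither was called.

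Between HU_Flag_RIP and Flag_RIP, 0 of the 16 genes were called by edgeR and 0 by DESeq2, and 0 had an unadjusted p under 0.05, against 415 of all 10473 genes at that unadjusted p and 0.611% called, 0.143% higher and 0.468% lower. Cyr61 had 7.31 and 4.60 CPM in HU_Flag_RIP, against 4.57 and 3.00 in Flag_RIP (0.65, SE 0.64). Thbs1 had 2.92 and 5.91 CPM in HU_Flag_RIP, against 2.82 and 0.750 in Flag_RIP (1.25, SE 0.67). The macrophage marker Lyz2 was called higher, with 9.70 and 32.7 CPM in HU_Flag_RIP, against 3.31 and 4.12 in Flag_RIP (2.50, SE 0.51, adjusted p = 0.019), and its part in the Thbs1 values was not tested. Fn1 had 21.4 and 54.4 CPM in HU_Flag_RIP, against 29.6 and 51.0 in Flag_RIP (-0.09, SE 0.39), and Loxl2 had 10.6 and 29.4 CPM in HU_Flag_RIP, against 14.3 and 41.9 in Flag_RIP (-0.49, SE 0.46). At these counts, standard errors of 0.36 to 1.70 on the log2 scale leave differences of several fold undetectable for most of the 16 genes.

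**Figure D4:**
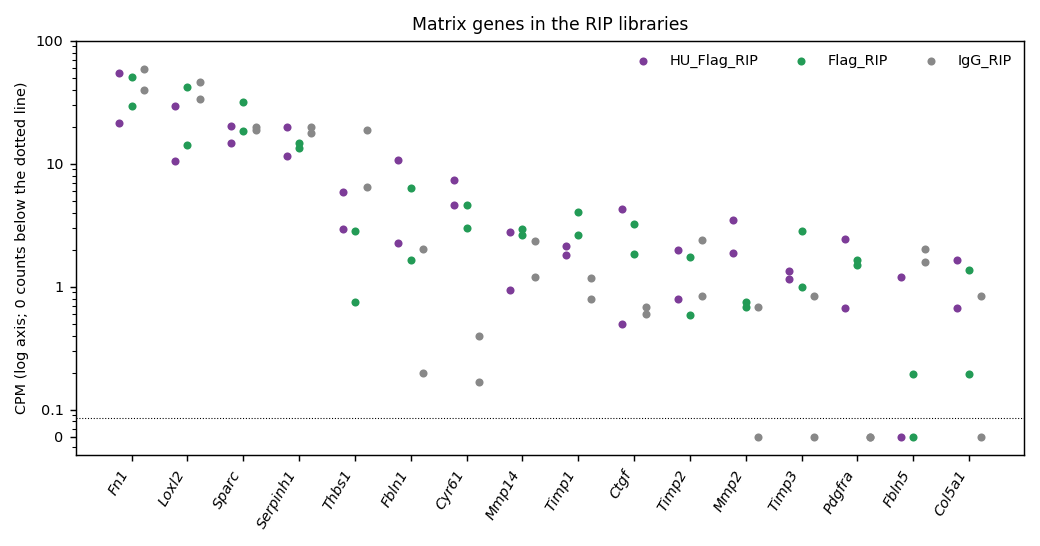
CPM (log axis; counts of 0 below the dotted line) of the 16 matrix genes tested in the RIP libraries, with 1 point per library for HU_Flag_RIP, Flag_RIP and IgG_RIP. For Cyr61 all 4 Flag points, from 3.00 to 7.31 CPM, lie above the IgG_RIP points, at 0.398 CPM or less. Cyr61 passed the filter on low counts only through libraries of the Flag antibody.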

How the data were processed

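RNA-seq and RIP libraries were prepared from Trizol-extracted RNA with the NEBNext Ultra RNA kit, per the labels' protocols; no source used here says whether strand was kept, so reads of overlapping or antisense partners may be mixed. For RNA-seq the authors deposited FPKM per gene with confidence bounds, per the file headers, and raw read counts per gene symbol for RIP, as the whole numbers in the deposited tables show. Per the submitters' processing notes the build was mm10; they list HTSeq 0.6.1, Cuffdiff 2.1.1, Cufflinks 2.1.1, TopHat2 2.0.8 and CASAVA 2.19 without roles. FPKM of the 280 symbols with several loci were summed (no matrix gene is among them), 1 gene marked as failed was left out, and 27 date-like symbols, 0.0206% to 0.0489% of the counts, were left out.

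FPKM are not counts, so limma 3.58.1 (R 4.3.3, limma-trend) was fitted to log2(FPKM + 1) of the 4 libraries compared, keeping genes whose mean reached 1 FPKM in 1 of the groups or both; such fold changes understate the change of low genes. Counts were tested with edgeR 4.0.16 (quasi-likelihood, TMM, filterByExpr, 6 RIP libraries in 1 fit). TMM factors were 1.45 and 1.60 in IgG_RIP and 0.782 to 0.846 in the other RIP libraries, and CPM were computed from them. Adjusted p-values are Benjamini-Hochberg values over all genes tested, called under 0.05. The fits were tested on simulated data. Alternatives were DESeq2 1.42.0, other scalings, filters, a pseudocount of 0.1, a 2-fold threshold, other libraries in the fit, a replicate block and each replicate left out.

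The genes and lists were chosen with earlier results of these data known. Values per library are given for the 2 genes highest in MEF and the gene with the smallest difference in each role, and elsewhere for up to 10 called genes with the smallest p and the 2 uncalled genes of highest level; any further gene was picked once its values had been seen. At most 3 genes with the smallest p are named from each other list. Promoter sequences are those of RefSeq on GRCm38.p6. Python 3.11.15 with matplotlib 3.10.9 drew the figures.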

Additional observations from a re-analysis of the deposited data

How the results depend on the processing

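All 39 matrix genes were called lower in mESC than in MEF under every alternative other than leaving out a library, where 37 to 39 were. In KD_control against MEF, 38 to 39 were called with a library left out, and 37 in a fit of all 8 libraries or with a 2-fold threshold. Between KD_control and mESC the count, 16, was 9 of 13 tested with a minimum of 5 FPKM and 12 to 22 with a library left out. For Dppa5a_KD against KD_control the count, 15, was 7 of 11 tested with that minimum, 7 with a 2-fold threshold, 12 (2 higher, 10 lower) with FPKM rescaled to a common sum and 13 to 19 with a library left out. The stricter minimum tests fewer genes. Rescaling moved the median of all genes in the knockdown comparison to 0.02 on the log2 scale, and median-ratio scaling moved it to 0.03 for mESC and 0.06 for KD_control against MEF and to 0.01 for KD_control against mESC.

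Flag_RIP against IgG_RIP gave 6 calls (1 higher, 5 lower) in place of 2 with library size alone, which moved the median of all genes to -0.87, and 0 to 1 with a library left out. HU_Flag_RIP against IgG_RIP gave 6 calls (1 higher, 5 lower) in place of 1 with library size alone, 2 with no filter and 0 to 2 with a library left out; HU_Flag_RIP against Flag_RIP gave 0 throughout. With 1 library left out, log2 fold changes of some genes that were not called with all libraries changed sign. For KD_control over mESC, Sparc ranged from -0.39 to 0.17 and Timp1 from -0.37 to 0.13, positive without mESC replicate 2. For Flag_RIP over IgG_RIP, Fn1 ranged from -0.73 to 0.046 and Loxl2 from -1.46 to 0.068, both highest without Flag_RIP replicate 1, and Fn1 was 0.030 without IgG_RIP replicate 1. For HU_Flag_RIP over IgG_RIP, Fn1 ranged from -1.21 to 0.13. For HU_Flag_RIP over Flag_RIP, Fn1 ranged from -0.91 to 0.43 and Loxl2 from -1.40 to 0.46, with 0.33 for Fn1 without Flag_RIP replicate 2 and 0.064 for Loxl2 without HU_Flag_RIP replicate 1. The cause was not tested.

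Samples that share a replicate number are not said to be paired, and their deviations correlated at -0.54 to 0.38 over the 7 comparisons. With the replicate number as a block, the counts of calls were 39, 38, 19 and 15 for the RNA-seq comparisons in the order above, and 2, 3 and 0 for Flag_RIP against IgG_RIP, HU_Flag_RIP against IgG_RIP and HU_Flag_RIP against Flag_RIP. A crossed pairing of mESC and MEF, chosen after seeing the data, gave 39 matrix genes and 8950 genes in all, against 7304 without a block. Low counts limit the RIP comparisons.

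With a library left out, calls over all genes numbered 2835 to 7056 for mESC against MEF (7304 with all), 1865 to 10895 for KD_control against mESC (5220), 2415 to 9436 for Dppa5a_KD against KD_control (4618), 30 to 248 for Flag_RIP against IgG_RIP (243) and 23 to 252 for HU_Flag_RIP against IgG_RIP (300). A 2-fold threshold left 6348 for KD_control against MEF (10806), 2996 for KD_control against mESC and 1092 for the knockdown, which had 3023 with the stricter minimum, 2939 with rescaling and 2992 in the fit of all 8 libraries. Flag_RIP and HU_Flag_RIP against IgG_RIP gave 2278 and 2709 with library size alone, 433 and 532 with no filter, and 508 and 617 with the replicate block; HU_Flag_RIP against Flag_RIP gave 41 in a fit of its 4 libraries (64 with all 6).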

Other observations

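Of 12 tested basement membrane genes, 1 was called higher than IgG_RIP in Flag_RIP (Col4a1) and 2 in HU_Flag_RIP (Col4a1 and Lamb1), with 0 called lower, against 1.16% and 1.44% of all genes called higher. Col4a1, a chain of basement membrane collagen, had 12.5 and 8.999 CPM in Flag_RIP, against 1.99 and 1.19 in IgG_RIP (log2 fold change 2.76, SE 0.53, edgeR adjusted p = 0.0078), and 10.2 and 10.4 CPM in HU_Flag_RIP (2.70, SE 0.53, adjusted p = 0.0081). Lamb1, a laminin chain, had 4.65 and 9.36 CPM in HU_Flag_RIP, against 1.39 and 0.677 in IgG_RIP (2.75, SE 0.69, adjusted p = 0.035), and 4.57 and 4.50 CPM in Flag_RIP, where it was not called (adjusted p = 0.12). Lamb1 passed the filter on low counts only through libraries of the Flag antibody, so nothing is read from the count of 2 in HU_Flag_RIP. Lama5, another laminin chain, had 1.75 and 4.75 CPM in Flag_RIP, against 9.96 and 13.4 in IgG_RIP, and was not called (-1.86, SE 0.55, adjusted p = 0.085). Smad7, of TGF-beta signalling, was called lower, with 32.6 and 30.1 CPM in Flag_RIP, against 105.1 and 120.7 in IgG_RIP (-1.85, SE 0.29, adjusted p = 0.0017). Of 19 collagen processing enzymes 0 were called by edgeR in either comparison, with 6 in Flag_RIP and 7 in HU_Flag_RIP at an unadjusted p under 0.05, against 1607 and 1788 of all 10473 genes at that p. The 2 comparisons share the IgG_RIP libraries. Col4a1, Lamb1 and Smad7 were not followed under the alternatives or with a library left out.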
